A study of Mus musculus with 7 samples.

Results

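The WNT ligands, their receptors, secreted antagonists and feedback targets were followed in whole mouse uterus as 57 genes among the 24964 gene symbols of the expression table. The members were taken by symbol, in a choice made with earlier results of these data known. They were all numbered Wnt, Fzd, Sfrp, Dkk and Rspo genes, with Frzb, Wif1, the Lgr and Lrp receptors, Ctnnb1, Porcn and 7 feedback targets. RNA sequencing compared 3 libraries of genotype Pgrcre/+ (controls, replicate numbers 1, 2 and 4) with 4 libraries of genotype Pgrcre/+Foxl2LsL/+ (numbers 1 to 4). All 7 came from uteri of mice 12 weeks of age collected in diestrus, and all carried 1 Pgr-Cre allele, which expresses Cre recombinase from the progesterone receptor locus. Cre from this locus acts wherever Pgr is active, which in the uterus includes epithelium, stroma and muscle, and it leaves 1 copy of Pgr disrupted in the controls too. The labels do not spell out LsL, a name often given to a stop cassette that Cre can remove. The labels do not say whether each library came from a separate animal, so the p-values measure the spread between these libraries.

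WNT proteins are lipid-modified secreted ligands that bind frizzled receptors together with the co-receptors LRP5 and LRP6, which stabilizes beta-catenin and lets it act with LEF/TCF factors on target genes. R-spondins acting through LGR receptors raise the amount of frizzled at the cell surface, while secreted SFRP, DKK and WIF1 proteins bind the ligands or the co-receptors and block them. Several target genes, Axin2 among them, encode inhibitors of the same pathway and serve as its feedback. In the mouse uterus WNT ligands of epithelium and stroma act in the formation of glands and in the response to ovarian steroids.

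Values are FPKM, fragments scaled to gene length and to the fragments of the library, so levels can be set side by side between genes. The depth recovered from the values was 4.78e+07 to 6.73e+07 fragments per library, so that 1 FPKM stood for 143.3 to 201.8 fragments on a gene of 3000 bases. The targeted gene was not higher in the libraries labelled Foxl2LsL: Foxl2 was at 11.1, 19.3 and 12.9 FPKM in controls 1, 2 and 4 and at 12.7 to 17.2 FPKM in the libraries labelled Foxl2LsL, so every direction below is that of the labels as they stand. Control 4 stood apart from controls 1 and 2 on the second principal component, at -31.9 against 25.2 and 8.53. The summed FPKM of 10 progesterone response genes was 395 in control 4 against 204 and 228 in the other controls, and that of 10 estrogen response genes was 167 against 470.3 and 469.96. Control 2 alone carried Ovgp1, an oviduct secretory product, at 291 FPKM, where the other libraries had 1.65 to 19.7 FPKM. Where leaving out 1 of these libraries changed the call of a member, both values are given. The exception is Lgr6, whose level was too low for testing over all 7 libraries. Markers of epithelium, stroma, smooth muscle and endothelium were present in all 7 libraries. The summed FPKM of 6 adipocyte markers varied widely within both groups. It was 0.46, 9.6 and 102 in controls 1, 2 and 4 and 2.8, 135, 269 and 18.9 in libraries 1 to 4 labelled Foxl2LsL.

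Groups were compared with limma on log2(FPKM + 1) over the 13334 genes with a mean of at least 1 FPKM, and a gene was called at a Benjamini-Hochberg adjusted p under 0.05 over all of them. Of the 57 members 40 passed this filter and 17 did not. Just outside it lay Lgr6 (mean 0.984 FPKM), Wnt6 (0.849) and Wnt2 (0.563), and just inside it Fzd5 (2.01) and Fzd3 (2.17). Among the 40 tested members 14 were called, 10 lower and 4 higher in the libraries labelled Foxl2LsL, where 40.6% of all tested genes were called, 23.9% lower and 16.7% higher. The called share of members was no larger than that of all tested genes, and their median log2 change of -0.11 stood beside -0.05 over all tested genes. A called change of at least 1 on the log2 scale was found in 9 of the 40, 7 lower and 2 higher, beside 7.78% of all tested genes in either direction and 4.16% lower. The groups did not overlap in 16 of the 40, 11 lower and 5 higher, where 47.6% of all tested genes did not overlap, 27.9% lower and 19.7% higher. The 7 were Sfrp2, Lef1, Apcdd1, Wnt9a, Nkd2, Fzd1 and Axin2, and the 2 were Fzd10 and Porcn. Without control 4 the count was 16 lower and 7 higher of 41 members tested, beside 40% of all tested genes called, 23.9% lower and 16.2% higher. The member added there was Lgr6, which reached a mean of 1 FPKM over the 6 libraries then left. Its mean was 0.338 FPKM in controls and 1.47 FPKM in the other group. Lgr6 thus passed the filter only through the group where it was high, once a control was left out. It was called higher there, and also when control 1 or control 2 was left out, and these calls give no separate support. In whole tissue, fewer cells of a type and less RNA per cell cannot be told apart, and this holds for each difference that follows.

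**Figure D1:**
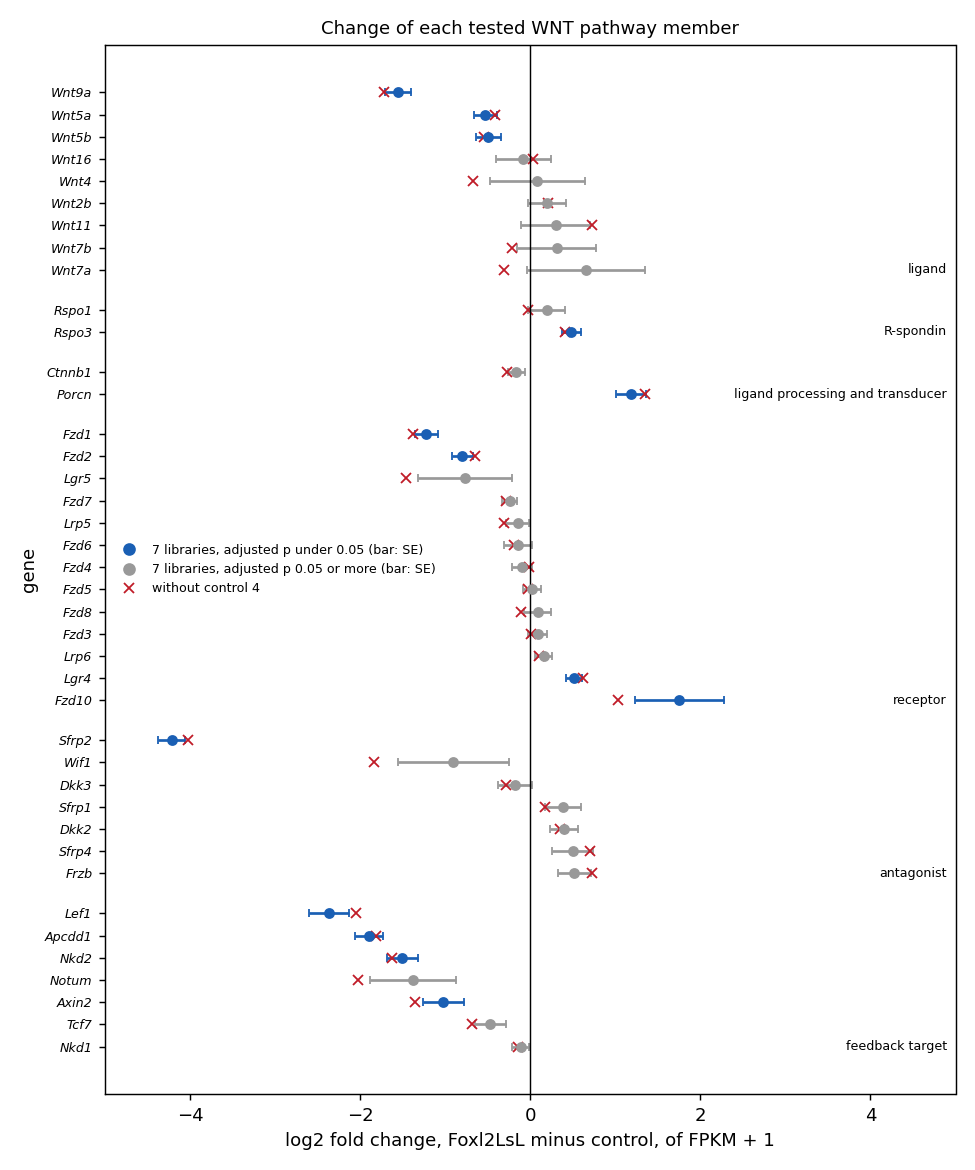
Change of the 40 tested members on the log2(FPKM + 1) scale, libraries labelled Foxl2LsL minus controls, grouped by role. Dots are the estimates from 7 libraries with their SE as bars, blue where the adjusted p was under 0.05 and grey where it was not, and crosses are the estimates without control 4. Sfrp2 lies farthest left at -4.22 and Fzd10 farthest right at 1.75, and the crosses of Wnt4, Wnt7a and Wnt7b, among others, lie on the other side of 0 from their dots.

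Of 19 Wnt genes 9 were tested, of which 3 were lower and none was higher at the threshold, beside 23.9% lower and 16.7% higher among all tested genes. Wnt9a fell most, Wnt5a and Wnt5b fell modestly, and the epithelial ligand Wnt7a and the stromal and epithelial ligand Wnt4 varied so widely among controls that no direction could be given. Wnt9a (chromosome 11, 59306928 to 59333552, plus strand, GRCm38) encodes a ligand known from joint and skeletal development. It was at 10.5, 12.9 and 8.02 FPKM in controls 1, 2 and 4 and at 2.90, 2.79, 2.39 and 3.30 FPKM in libraries 1 to 4 labelled Foxl2LsL. All 4 of the latter lay below every control. The control mean was 10.5 ± 2.43 FPKM (SD, n = 3), and that of the other group was 2.84 ± 0.374 FPKM (SD, n = 4). The log2 change was -1.56 (SE 0.15; limma, adjusted p 0.000488), and Wnt9a kept its call under all 16 alternative settings.

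Wnt5a (chromosome 14, 28504750 to 28527448, plus strand), a ligand best known for signalling without beta-catenin and for patterning the reproductive tract, was at 29.5, 41.2 and 44.6 FPKM in controls 1, 2 and 4. In the libraries labelled Foxl2LsL it was at 25.4, 24.985, 26.6 and 26.8 FPKM. The groups did not overlap, the second group lay within a narrow band, and the log2 change was -0.53 (SE 0.13; limma, adjusted p 0.0168). The closely related Wnt5b averaged 4.18 ± 0.969 FPKM in controls (SD, n = 3) and fell to 2.66 ± 0.426 FPKM (SD, n = 4), by a log2 change of -0.49 (SE 0.15; limma, adjusted p 0.0323). Both calls were lost without control 2, where the adjusted p was 0.0646 for Wnt5a and 0.101 for Wnt5b (limma). Wnt5b also lost its call without library 1, 2 or 3 labelled Foxl2LsL, at adjusted p 0.0534, 0.0634 and 0.0764 (limma).

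Wnt7a (chromosome 6, 91363981 to 91411363, minus strand), a ligand of the luminal epithelium that is needed for uterine glands, had the highest mean of all Wnt genes over the 7 libraries. It was at 77.6, 33.2 and 6.002 FPKM in controls 1, 2 and 4, and at 41.9, 41.5, 37.6 and 42.5 FPKM in the libraries labelled Foxl2LsL. The controls thus spanned the other group on either side, with an SD of 36.1 FPKM against 2.24 FPKM. The log2 change of 0.65 (SE 0.69; limma, adjusted p 0.483) turned to -0.31 without control 4 (limma, adjusted p 0.414). Wnt4, a stromal ligand of decidualization, had the same order among controls, at 22.2, 19.2 and 3.43 FPKM. The 4 other libraries lay between, at 14.8, 7.71, 12.8 and 16.5 FPKM, and the log2 change of 0.09 turned to -0.68 without control 4 (limma, adjusted p 0.076). Wnt7b was likewise lowest in control 4, at 1.17 FPKM against 6.78 and 4.38 FPKM in controls 1 and 2 and 2.30 to 7.30 FPKM in the libraries labelled Foxl2LsL. Wnt11 was highest among controls in control 4, at 12.9 FPKM against 4.87 and 4.64 FPKM. In libraries 1 to 4 labelled Foxl2LsL it was at 5.67, 10.1, 14.9 and 5.87 FPKM. Control 4 and libraries 2 and 3 labelled Foxl2LsL, the highest in Wnt11, were also the highest in summed adipocyte markers. The part of these markers in the Wnt11 values was not tested.

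Wnt16 had means of 8.99 ± 2.87 FPKM in controls (SD, n = 3) and 8.60 ± 3.15 FPKM in the other group (SD, n = 4), and Wnt2b of 3.62 ± 1.16 and 4.26 ± 1.13 FPKM. The groups overlapped in both. Of the 10 Wnt genes below the filter, Wnt6 and Wnt2 carried enough fragments to compare. Wnt6 was at 1.14, 1.44 and 2.11 FPKM in controls 1, 2 and 4 (149, 201 and 286 fragments) and at 0.162, 0.496, 0.336 and 0.258 FPKM in the other group (22, 49, 42 and 28 fragments). No library of either group lay within the range of the other. In the fit without a filter, where 27.6% of genes were called, Wnt6 was lower by a log2 change of -0.95 (limma, adjusted p 0.00462). In the same fit Wnt2 was higher by 0.33 (limma, adjusted p 0.0402), with 0.303 to 0.457 FPKM in controls and 0.484 to 0.945 FPKM in the libraries labelled Foxl2LsL. The remaining 8, Wnt1, Wnt3, Wnt3a, Wnt8a, Wnt8b, Wnt9b, Wnt10a and Wnt10b, reached at most 0.117 FPKM in any library. Wnt3a had 0 fragments in all 7, which allows up to 0.0162 to 0.0228 FPKM at a limit of 3 fragments per library, for counting error only.

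Summed over the 19 genes, WNT ligand RNA was 165, 139 and 96.5 FPKM in controls 1, 2 and 4 and 109 to 121 FPKM in the libraries labelled Foxl2LsL, so the totals overlapped. The make-up of that total differed more among controls than in the other group. Wnt7a held 47.1%, 24.0% and 6.22% of it in controls 1, 2 and 4 and 32.6% to 38.4% in the libraries labelled Foxl2LsL. Wnt9a held 6.38% to 9.29% in controls and 2.07% to 2.74% in the other group. The summed level of 10 epithelial markers was 823 to 1553 FPKM in controls, lowest in control 4, and 1241 to 1939 FPKM in the other group. At the threshold 3 of 10 were higher, beside 16.7% of all tested genes, and 1 of 10 without control 4. The part of these markers in the ligand values was not tested.

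**Figure D2:**
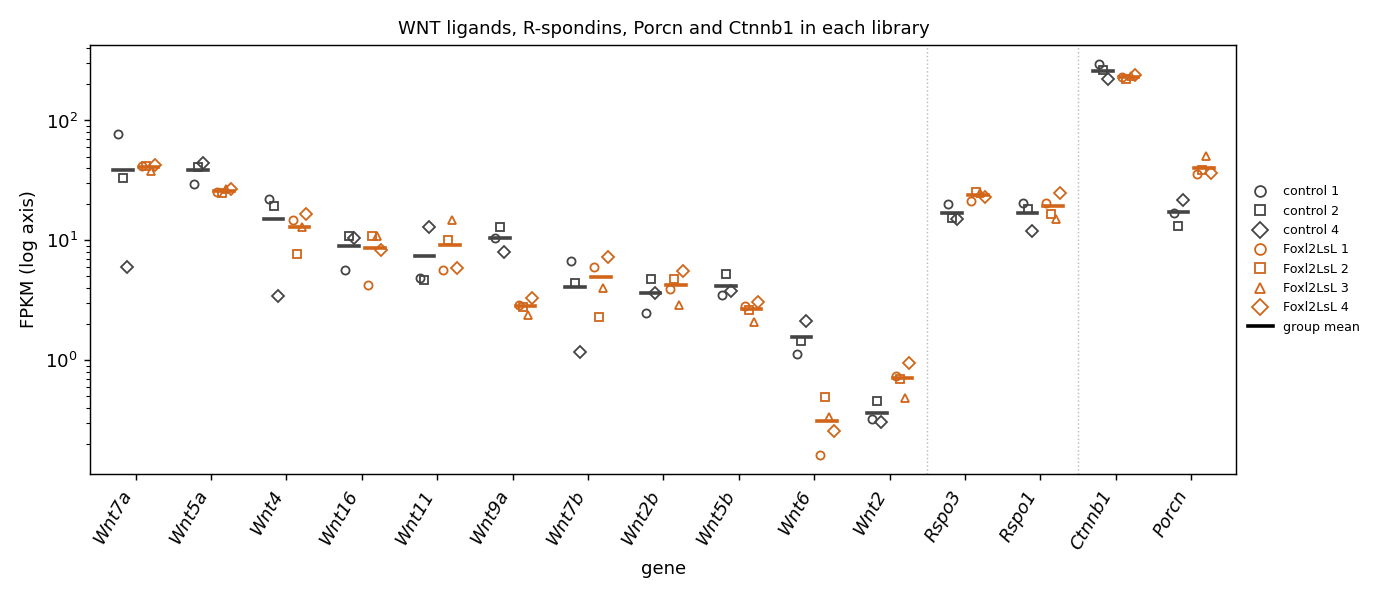
FPKM on a log axis of the Wnt genes with a mean of at least 0.4 FPKM, the R-spondins Rspo3 and Rspo1, and Ctnnb1 and Porcn, 1 symbol per library, controls in grey and libraries labelled Foxl2LsL in orange, with group means as bars. Control 4 (grey diamond) lies far below the other controls for Wnt7a, Wnt4 and Wnt7b, while Wnt9a and Wnt6 show no overlap between groups.

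Porcn rose, and Ctnnb1 had no call over 7 libraries. Porcn (chromosome X, 8193848 to 8206525, minus strand) encodes the acyltransferase that adds the lipid every WNT ligand needs for secretion. It was at 16.96, 13.2 and 21.7 FPKM in controls 1, 2 and 4 and at 35.5, 38.3, 50.7 and 36.6 FPKM in libraries 1 to 4 labelled Foxl2LsL. Every library of the latter exceeded every control, and the log2 change was 1.19 (SE 0.18; limma, adjusted p 0.00216). Ctnnb1, which encodes beta-catenin, was the most abundant member at 295, 264 and 224 FPKM in controls 1, 2 and 4. The libraries labelled Foxl2LsL held 231, 221, 233 and 239 FPKM, of which 221 FPKM lay just below the lowest control and the rest among the controls. Its log2 change of -0.17 (limma, adjusted p 0.226) became -0.27 without control 4 (limma, adjusted p 0.0485).

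Rspo3 rose modestly, Rspo1 overlapped between groups, and Rspo2 and Rspo4 were near the floor, at no more than 0.162 FPKM in any library. Rspo3, an LGR ligand that strengthens WNT signals, was at 20.03, 15.3 and 15.01 FPKM in controls 1, 2 and 4 and at 21.3, 25.4, 24.9 and 23.2 FPKM in the libraries labelled Foxl2LsL. The groups were separated by a narrow gap, with a log2 change of 0.48 (SE 0.11; limma, adjusted p 0.0128). Without control 2 the adjusted p was 0.0524 (limma). Rspo1 had means of 16.8 ± 4.39 FPKM in controls (SD, n = 3) and 19.2 ± 4.37 FPKM in the other group (SD, n = 4) and no call.

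Of 15 receptor genes 13 were tested, of which 2 fell, 2 rose and 9 were not called, a called share below the 40.6% of all tested genes. The frizzled genes moved in opposite directions: Fzd1 and Fzd2 fell while Fzd10 rose, and their summed level was 104 to 134 FPKM in controls and 106 to 132 FPKM in the other group. Frizzled genes encode the seven-pass membrane receptors that bind the lipid-modified end of WNT ligands. Fzd1 (chromosome 5, 4753839 to 4758035, minus strand) was at 23.3, 22.5 and 16.1 FPKM in controls 1, 2 and 4 and at 8.06, 9.13, 7.45 and 8.05 FPKM in libraries 1 to 4 labelled Foxl2LsL. The second group lay well below the first, at a log2 change of -1.22 (SE 0.13; limma, adjusted p 0.000690). Fzd2 (chromosome 11, 102604396 to 102608058, plus strand) was at 22.0, 21.6 and 29.7 FPKM in controls. The other group held 12.4, 14.5, 12.5 and 14.6 FPKM, again without overlap, and the log2 change was -0.80 (SE 0.13; limma, adjusted p 0.00249).

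Fzd10 (chromosome 5, 128600844 to 128604093, plus strand) was at 24.1, 15.1 and 3.48 FPKM in controls 1, 2 and 4. Libraries 1 to 4 labelled Foxl2LsL held 30.2, 49.5, 46.0 and 37.4 FPKM, all above the highest control. The log2 change was 1.75 (SE 0.53; limma, adjusted p 0.0316), and without control 4 it was 1.03 (SE 0.24; limma, adjusted p 0.0126). The call was lost without control 2 (adjusted p 0.0557) and without library 2, 3 or 4 labelled Foxl2LsL (0.0728, 0.0773 and 0.0625; limma). Fzd10 held 3.35% to 17.97% of the summed frizzled level in controls and 28.5% to 40.6% in the other group. Fzd6, the most abundant frizzled gene in each control, had means of 40.2 ± 3.52 FPKM in controls (SD, n = 3) and 36.8 ± 8.78 FPKM in the other group (SD, n = 4) with overlapping groups; its values were 44.2, 38.8 and 37.5 FPKM in controls 1, 2 and 4 and 37.7, 30.6, 48.9 and 30.1 FPKM in the libraries labelled Foxl2LsL. Fzd7 did not overlap between groups, at 6.57 to 7.29 FPKM against 5.09 to 6.30 FPKM, but had an adjusted p of 0.060 (limma). Fzd3, Fzd4, Fzd5 and Fzd8 had means between 1.98 and 4.56 FPKM and no call, and Fzd9 reached at most 0.072 FPKM.

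The co-receptors had no call over the 7 libraries. Lrp5 had means of 13.3 ± 2.92 FPKM in controls (SD, n = 3) and 11.7 ± 0.837 FPKM in the other group (SD, n = 4), and Lrp6 of 9.38 ± 0.692 and 10.6 ± 1.21 FPKM. Without control 4 the log2 change of Lrp5 was -0.31 (limma, adjusted p 0.0456). Of the R-spondin receptors, Lgr4 (chromosome 2, 109917647 to 110014257, plus strand) rose from 7.14, 8.08 and 9.61 FPKM in controls 1, 2 and 4 to 12.5, 11.7, 12.1 and 12.4 FPKM. The log2 change was 0.52 (SE 0.10; limma, adjusted p 0.00483), with no overlap. Lgr5, a stem cell marker of several epithelia, was at 11.8, 5.95 and 1.20 FPKM in controls 1, 2 and 4. The other group, at 2.03, 3.49, 3.40 and 1.31 FPKM, lay between control 4 and control 2. Its log2 change was -0.76 (limma, adjusted p 0.302), and -1.46 without control 4 (limma, adjusted p 0.0128). Lgr6, below the filter, was at 0.244, 0.505 and 0.265 FPKM in controls (56, 123 and 63 fragments) and at 1.82, 1.57, 0.921 and 1.57 FPKM in the other group (431, 271, 202 and 299 fragments). In the fit without a filter Lgr6 was higher by 0.87 on the log2 scale (limma, adjusted p 0.00605). The sum of the 3 Lgr genes overlapped between groups, at 11.1 to 19.2 and 15.3 to 16.8 FPKM, while the share of Lgr5 in it was 61.6%, 40.9% and 10.9% in controls 1, 2 and 4 and 8.55% to 20.8% in the libraries labelled Foxl2LsL.

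**Figure D3:**
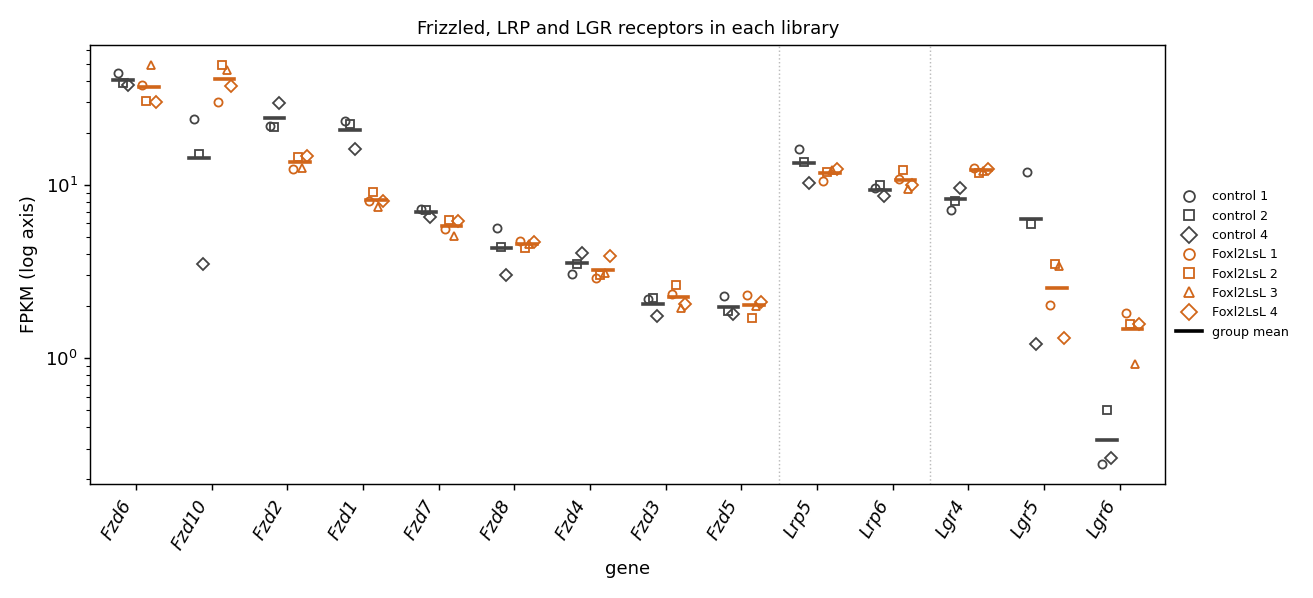
FPKM on a log axis of the frizzled, LRP and LGR genes with a mean of at least 0.4 FPKM, 1 symbol per library, controls in grey and libraries labelled Foxl2LsL in orange, with group means as bars. Fzd1 and Fzd2 are lower and Lgr4, Lgr6 and Fzd10 higher in all 4 orange libraries than in any control, and control 4 (grey diamond) is the lowest library for Fzd10 and Lgr5.

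Of 10 antagonist genes 7 were tested and a single one, Sfrp2, was called over the 7 libraries, beside 40.6% of all tested genes. Sfrp2 (chromosome 3, 83766321 to 83774316, plus strand) encodes a secreted decoy that carries a frizzled-like domain and binds WNT ligands. It was at 48.3, 56.1 and 77.9 FPKM in controls 1, 2 and 4 and at 2.27, 2.73, 2.15 and 1.93 FPKM in libraries 1 to 4 labelled Foxl2LsL. The lowest control was far above the highest library of the other group, and the mean FPKM was 26.7-fold lower. The log2 change was -4.22 (SE 0.16; limma, adjusted p 2.18e-05). From 203 to 298 fragments lay on Sfrp2 in the libraries labelled Foxl2LsL and 6133 to 10224 in controls. In GENCODE M21 an opposite-strand transcript, Gm26771, covers 347 of the 2153 exonic bases of Sfrp2, and whether the counting used strand is not stated.

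The other SFRP genes went the opposite way in mean level without a call. Sfrp4 had means of 10.8 ± 3.93 FPKM in controls (SD, n = 3) and 15.0 ± 2.11 FPKM in the other group (SD, n = 4), Frzb of 3.91 ± 1.37 and 5.89 ± 0.862 FPKM, and Sfrp1 of 2.68 ± 0.921 and 3.75 ± 0.920 FPKM. The groups overlapped in all 3, with adjusted p of 0.129, 0.063 and 0.187 (limma). Without control 4 Frzb was higher by 0.73 (limma, adjusted p 0.00898) and Sfrp4 by 0.70 (limma, adjusted p 0.0459) on the log2 scale. Wif1, a secreted protein that binds WNT ligands directly, was at 10.2 and 15.6 FPKM in controls 1 and 2 but at 0.958 FPKM in control 4. The other group lay between, at 1.94, 2.93, 3.12 and 3.40 FPKM. The log2 change was -0.90 over 7 libraries (limma, adjusted p 0.299) and -1.84 without control 4 (limma, adjusted p 0.000772), so control 4 decided the call of Wif1.

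Dickkopf proteins act on the LRP co-receptors, apart from DKK3, whose part in WNT signalling is less clear. Dkk3 was at 16.4, 28.4 and 16.9 FPKM in controls 1, 2 and 4 and at 16.2, 20.8, 15.2 and 18.3 FPKM in the other group. Only control 2 stood out, which was also the library with the high Ovgp1. A link between Dkk3 and Ovgp1 was not tested. Dkk2 was at 3.96 to 4.57 FPKM in controls and at 5.57, 5.18, 5.22 and 8.67 FPKM in libraries 1 to 4 labelled Foxl2LsL. These groups did not overlap, but the adjusted p was 0.0855 (limma). Dkk1, Dkk4 and Sfrp5 were below the filter and reached at most 0.249 FPKM.

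Summed over the 10 genes, antagonist RNA was 92.0, 123 and 121 FPKM in controls 1, 2 and 4 and 49.5 to 58.4 FPKM in the libraries labelled Foxl2LsL. Without Sfrp2 the sums were 43.1 to 67.2 FPKM and 47.4 to 56.4 FPKM, so the lower total lay in Sfrp2. Sfrp2 held 45.5% to 64.4% of the antagonist level in controls and 3.31% to 5.16% in the other group, where Dkk3 (29.8% to 39.2%) and Sfrp4 (23.2% to 32.1%) took the largest shares. Of 10 stromal markers, 4 were lower and 1 higher at the threshold, beside 23.9% lower and 16.7% higher among all tested genes. Their summed level was 1261 to 2389 FPKM in controls and 1755 to 2008 FPKM in the other group. The higher marker, Dcn, was at 367 to 467 FPKM in controls and 922 to 1034 FPKM in the other group. The sums include this rise. The lower markers were Hand2, Hoxa11, Hoxa10 and Vim, and 5 were not called. Hand2 and Hoxa10 also stand in the list of progesterone response genes. None of the 10 stromal markers stayed under 0.1 FPKM in all libraries, and their part in the Sfrp2 values was not tested.

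**Figure D4:**
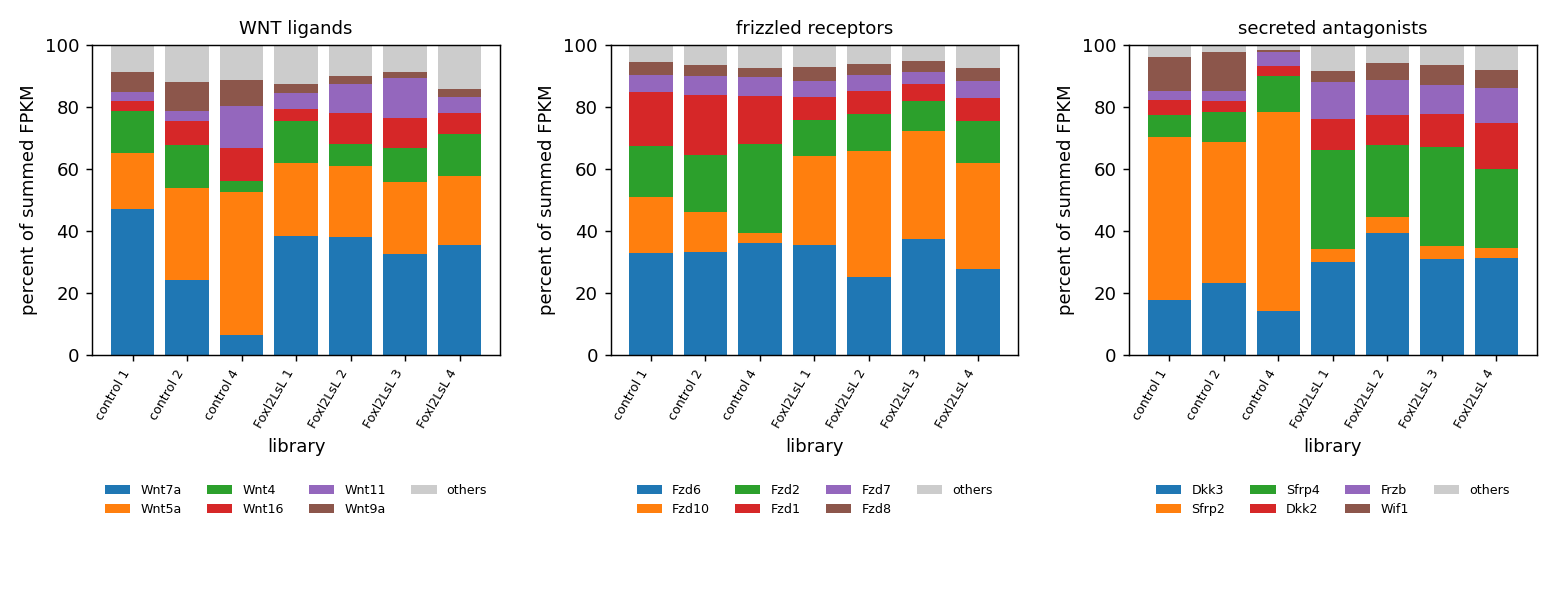
Make-up of the summed FPKM of WNT ligands, frizzled receptors and secreted antagonists in each library, as percent, with the 6 genes of highest mean share in colour and all others in grey. The Sfrp2 segment shrinks from at least 45.5% in controls to at most 5.16% in the libraries labelled Foxl2LsL, and the Wnt7a segment spans 6.22% to 47.1% among the controls.

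All 7 feedback targets were tested and 4 of them fell, where 23.9% of all tested genes were lower: Lef1, Apcdd1, Nkd2 and Axin2. Tcf7, Notum and Nkd1 were not called over the 7 libraries, none of the 7 rose, and 6 fell without control 4. The median log2 change of the 7 was -1.38, the value of Notum, which had no call. Their summed level was 152 to 177 FPKM in controls and 51.9 to 70.3 FPKM in the libraries labelled Foxl2LsL. Apcdd1 alone held 33.7% to 55.0% of this sum in controls and 28.7% to 34.9% in the other group. Lef1 (chromosome 3, 131110471 to 131224356, plus strand), a DNA-binding partner of beta-catenin and itself a target, was at 4.88, 5.37 and 11.0 FPKM in controls 1, 2 and 4. In libraries 1 to 4 labelled Foxl2LsL it was at 0.435, 0.556, 0.520 and 0.423 FPKM, with 82 to 116 fragments each. The mean was 14.7-fold lower, and the log2 change, which understates the fall of a gene at this level, was -2.37 (SE 0.24; limma, adjusted p 0.000505).

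Apcdd1 (chromosome 18, 62922231 to 62961179, plus strand), a membrane inhibitor of WNT signalling, was at 59.6, 81.5 and 83.5 FPKM in controls 1, 2 and 4 and at 14.9, 22.2, 21.4 and 18.8 FPKM in the other group. The groups were far apart, with a log2 change of -1.90 (SE 0.17; limma, adjusted p 0.000327). Nkd2 (chromosome 13, 73818534 to 73847631, minus strand), which binds Dishevelled and dampens the signal, was at 28.9, 19.4 and 18.4 FPKM in controls. Libraries labelled Foxl2LsL held 5.72, 8.89, 6.69 and 7.12 FPKM, again without overlap (log2 change -1.505, SE 0.18; limma, adjusted p 0.00100). Its paralog Nkd1 had means of 10.6 ± 0.851 FPKM in controls (SD, n = 3) and 9.75 ± 1.15 FPKM in the other group (SD, n = 4), with overlapping groups (log2 change -0.11; limma, adjusted p 0.412).

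Axin2 (chromosome 11, 108920349 to 108950783, plus strand), a scaffold of the complex that degrades beta-catenin and the usual readout of the pathway, was at 30.3, 30.6 and 14.9 FPKM in controls 1, 2 and 4. The libraries labelled Foxl2LsL held 9.35, 13.2, 11.7 and 11.4 FPKM. Control 4 lay close above the other group, and controls 1 and 2 lay far above it. The log2 change was -1.02 (SE 0.25; limma, adjusted p 0.0137), -1.35 without control 4 (limma, adjusted p 0.000353) and -0.85 without control 2 (limma, adjusted p 0.0531). Notum, a secreted enzyme that removes the lipid from WNT ligands, was at 22.1, 11.8 and 3.48 FPKM in controls 1, 2 and 4 and at 2.43, 5.26, 2.96 and 2.77 FPKM in the other group. Control 4 lay within the range of the other group, and the log2 change was -1.38 (limma, adjusted p 0.062), and -2.02 without control 4 (limma, adjusted p 0.00228). Opposite-strand transcripts cover 38.1% of the exonic bases of Notum. Tcf7, a LEF/TCF factor, had means of 15.1 ± 4.56 FPKM in controls (SD, n = 3) and 10.3 ± 1.17 FPKM in the other group (SD, n = 4), a log2 change of -0.47 (limma, adjusted p 0.0782), and -0.68 without control 4 (limma, adjusted p 0.00721).

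**Figure D5:**
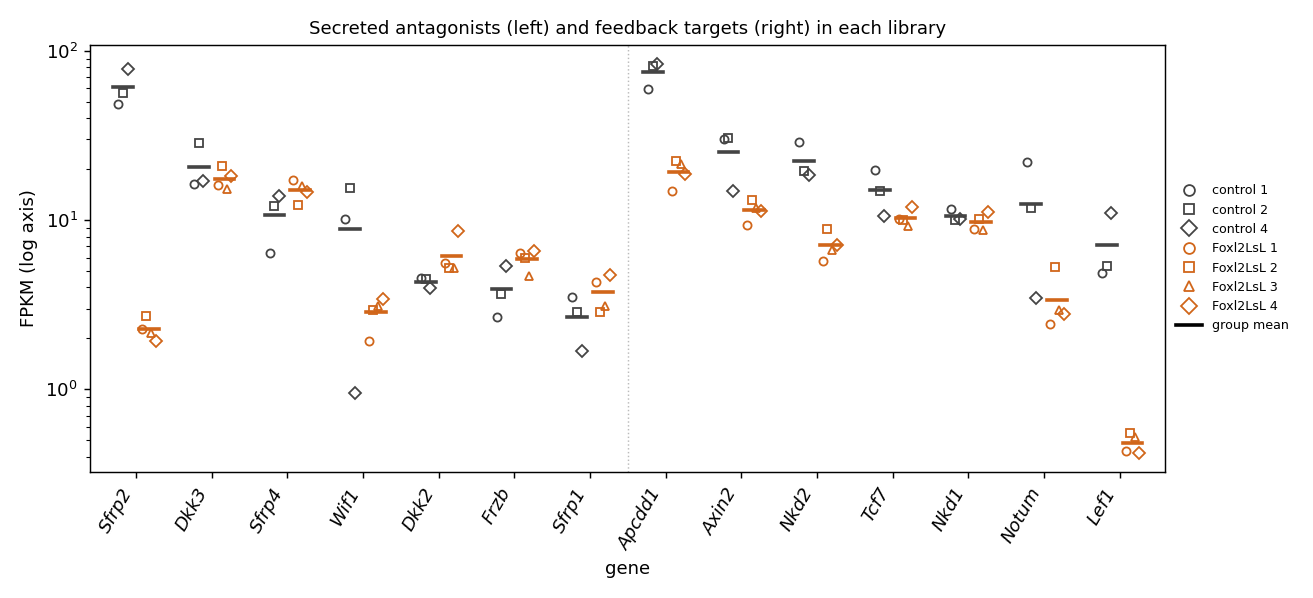
FPKM on a log axis of the secreted antagonists (left) and feedback targets (right) with a mean of at least 0.4 FPKM, 1 symbol per library, controls in grey and libraries labelled Foxl2LsL in orange, with group means as bars. Sfrp2, Apcdd1, Nkd2 and Lef1 are far lower in all 4 orange libraries, Nkd1 overlaps, and control 4 (grey diamond) falls below the orange libraries for Wif1.

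The 250 bases upstream of the listed start sites are shown for 3 feedback targets that fell, for Sfrp2 as the member that fell most, and for Wnt5b as the called member with a LEF/TCF core in this window. The sequences are RefSeq's on GRCm38.p6, 5′ to 3′ on the gene's strand, and capitals mark the core CTTTGAT (reverse complement ATCAAAG).

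Sfrp2, chr3:83766071-83766320, plus strand: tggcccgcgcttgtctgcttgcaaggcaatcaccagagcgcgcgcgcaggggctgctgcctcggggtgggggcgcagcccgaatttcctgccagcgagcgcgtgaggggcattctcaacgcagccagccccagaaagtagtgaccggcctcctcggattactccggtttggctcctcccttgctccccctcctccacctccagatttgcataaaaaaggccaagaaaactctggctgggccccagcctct

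Lef1, chr3:131110047-131110296, plus strand, the first of 4 listed starts: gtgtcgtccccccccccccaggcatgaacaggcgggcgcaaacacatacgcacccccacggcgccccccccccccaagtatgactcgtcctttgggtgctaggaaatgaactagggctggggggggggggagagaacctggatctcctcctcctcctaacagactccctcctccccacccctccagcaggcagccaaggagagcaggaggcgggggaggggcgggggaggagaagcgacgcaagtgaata

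Nkd2, chr13:73847632-73847881, minus strand: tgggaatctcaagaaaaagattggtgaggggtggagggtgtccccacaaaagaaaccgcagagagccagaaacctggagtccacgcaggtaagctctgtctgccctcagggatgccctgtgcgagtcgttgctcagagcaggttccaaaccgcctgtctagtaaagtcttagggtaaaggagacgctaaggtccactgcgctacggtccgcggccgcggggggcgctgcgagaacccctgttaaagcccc

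Axin2, chr11:108920099-108920348, plus strand: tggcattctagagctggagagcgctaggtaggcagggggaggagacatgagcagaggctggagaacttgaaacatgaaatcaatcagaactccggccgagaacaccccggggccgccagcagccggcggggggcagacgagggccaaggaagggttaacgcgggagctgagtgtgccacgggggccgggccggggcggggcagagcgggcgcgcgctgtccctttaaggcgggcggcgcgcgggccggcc

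Wnt5b, chr6:119449387-119449636, minus strand, from the start of lowest coordinate among 3 listed: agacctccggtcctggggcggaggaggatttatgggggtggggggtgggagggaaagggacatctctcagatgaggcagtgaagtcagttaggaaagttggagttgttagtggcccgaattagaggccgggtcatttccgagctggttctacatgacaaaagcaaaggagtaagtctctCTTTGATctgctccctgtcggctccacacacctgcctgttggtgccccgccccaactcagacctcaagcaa

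The core was searched on both strands in 45 upstream windows of the 37 members with a listed start. It was found in 2 of them, those of Wnt5b and Wnt11, and in 3.21% of all 32851 windows of this length. The forkhead core TGTTTAC (reverse complement GTAAACA) was in 0 of the 45 windows and in 3.17% of all windows. The printed windows held 69.2% G and C in Axin2, 66.4% in Lef1, 63.6% in Sfrp2, 58.4% in Nkd2 and 55.6% in Wnt5b, where the median of all windows was 52.4%. A match describes letters only, and these windows leave out introns and distant elements.

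Other genes of the pathway were taken from 8 lists, which held 75 genes beside the members. Of these 73 were measured and 62 tested, and 13 fell, 7 rose and 42 were not called, with a median log2 change of -0.10. The called share was 32.3%, beside 40.6% of all tested genes (23.9% lower and 16.7% higher), and without control 4 the count was 18 lower and 5 higher. Reported WNT targets had 4 of 14 tested genes lower and 2 higher, and 6 lower and 2 higher without control 4. The 2 higher over the 7 libraries, named after their values were seen, were Twist1 and Prox1, both by 0.47 on the log2 scale (limma, adjusted p 0.00309 and 0.0206), and the lower genes included Myc, at -0.60 (limma, adjusted p 0.0363). Of the lower genes Sp5, a transcription factor gene often used as a direct target, was at 5.11, 4.89 and 1.88 FPKM in controls 1, 2 and 4 and at 0.4 to 0.709 FPKM in the other group, with no overlap (log2 change -1.58; limma, adjusted p 0.00301). Cd44, which encodes a hyaluronan receptor, averaged 16.4 ± 2.18 FPKM in controls (SD, n = 3) and fell to 7.67 ± 0.569 FPKM (SD, n = 4), a log2 change of -1.0005 (limma, adjusted p 0.000537). Msx1, a homeobox gene of uterine receptivity, fell by 0.63 on the log2 scale (limma, adjusted p 0.0311), a call lost without control 1 (adjusted p 0.0825) and without library 1 or 4 labelled Foxl2LsL (0.0718 and 0.0707; limma).

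Among 5 tested genes of the list of other antagonists, of 10 listed, Igfbp4 fell and Dkkl1 and Shisa2 rose, besides the member Apcdd1, which fell. Of all tested genes 23.9% were lower and 16.7% higher. Igfbp4, an insulin-like growth factor binding protein that can also block frizzled and LRP6, was at 249.2, 374 and 446 FPKM in controls 1, 2 and 4 and at 127 to 142 FPKM in the other group (log2 change -1.39; limma, adjusted p 0.00127). Dkkl1 was at 0.371 to 0.908 FPKM in controls and 3.43 to 6.49 FPKM in the libraries labelled Foxl2LsL. Its log2 change was 1.87 (limma, adjusted p 0.000678). With a control mean of 0.618 FPKM, Dkkl1 passed the filter only through the group where it was high. Whether Dkkl1 blocks WNT signals was not tested here. Shisa2, which retains frizzled receptors inside the cell, was at 8.16, 9.09 and 1.71 FPKM in controls 1, 2 and 4 and at 16.6 to 29.8 FPKM in the other group. Its log2 change was 1.84, and 1.23 without control 4 (limma, adjusted p 0.00717). With a replicate block on libraries 1, 2 and 4 of each group Shisa2 lost its call (limma, adjusted p 0.0522).

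In the destruction complex and Dishevelled list 3 of 12 tested genes fell and 1 rose, beside 23.9% lower and 16.7% higher among all tested genes. Amer1 fell by 0.63, Dvl3 by 0.41 and Gsk3a by 0.27 on the log2 scale. The gene that rose, named after its value was seen, was Gsk3b, by 0.19 (limma, adjusted p 0.0416). Without control 4 the list had 5 lower and 0 higher, so Gsk3b lost its call there. The call of Gsk3a was lost without control 1 or 2 (adjusted p 0.0501 and 0.0643; limma). Of 12 tested nuclear factors, Bcl9, a co-activator of beta-catenin, averaged 17.6 ± 2.08 FPKM in controls (SD, n = 3) and rose to 32.2 ± 1.69 FPKM (SD, n = 4), by a log2 change of 0.84, and Tle4, a co-repressor, fell by 0.33. Tle4 was near the threshold (limma, adjusted p 0.0465) and lost its call without any 1 of the libraries except number 2 labelled Foxl2LsL, with adjusted p of 0.0588 to 0.113 (limma). Of 8 tested co-receptors, Ptk7 fell by 0.65 and Ryk by 0.32, the latter a call lost without control 1 or 2 (adjusted p 0.0643 and 0.0676; limma) and without library 2, 3 or 4 labelled Foxl2LsL (0.0515, 0.0638 and 0.0647; limma). Of 11 tested genes of planar cell polarity, the arm that orients cells without beta-catenin, Prickle2 fell by 1.24 and Daam2 by 0.93 on the log2 scale. Daam1 rose by 0.22 (limma, adjusted p 0.0493), a call lost without any of the 7 libraries in turn (limma, adjusted p 0.0539 to 0.12). The called shares of these lists, in the order given, were 33.3%, 16.7%, 25% and 27.3%. Each lay below the 40.6% of all tested genes.

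Markers of other processes moved with the same contrast. Among all tested genes 23.9% were lower and 16.7% higher, and 23.9% and 16.2% without control 4. All 10 proliferation genes were lower at the threshold, with summed levels of 125 to 274 FPKM in controls and 23.1 to 51.5 FPKM in the libraries labelled Foxl2LsL. Of 5 tested gland markers 3 were lower, at sums of 142 to 176 and 81.9 to 104 FPKM, and of 10 endothelial markers 7 were lower and 2 higher, at sums of 199 to 248 and 148 to 166 FPKM. Of 10 smooth muscle markers 4 were higher, at sums of 923 to 1774 and 1609 to 2045 FPKM, which overlapped through control 4, and without control 4 all 10 were higher. The estrogen response genes, like the other lists, were chosen with earlier results of these data known. Of them 7 of 9 tested were higher and 1, the proliferation gene Mki67, was lower. Without control 4 the count was 5 higher and 1 lower. Of the progesterone response genes 5 of 8 tested were lower, and 4 of 6 without control 4. The part of these in the WNT values was not tested.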

How the data were processed

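The authors deposited 1 table of FPKM values with 1 column per library, which were matched to samples by the labels' descriptions, and the same deposited table gives another value, the length of each gene in bases, per the file headers. The submitters' processing notes name mm10, STAR 2.5.2b, Subread, featureCounts 1.5.0-p1 and DESeq2 1.12.4. Which annotation was counted, and whether strand was used, are not given in the sources used here. FPKM divides by all fragments of a library, so strong rises lower other values. The listed genes held 74.4% to 77.5% of the recovered depth per library. Whole fragments were recovered from FPKM and length: 100% of the 1647 to 1819 low values used per library lay within 0.1 of a whole number. A limit of 3 fragments was used for genes at 0, and such limits cover counting error only.

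Values were compared as log2(FPKM + 1) with limma 3.58.1 (lmFit, eBayes with an intensity trend) in R 4.3.3, with Benjamini-Hochberg adjustment over 13334 genes. Fold changes on this scale understate those of low genes. Every p in the text named as adjusted comes from limma. A test on simulated data of 13334 genes called 93% of the 200 genes given a log2 change of 1.5, and 9 of the others. Its noise had the same spread in both groups, and the changed genes were not drawn from the lowest levels. In the real data 40.6% of genes were called and spreads differed between groups, so these rates need not hold there. Members, roles, lists and tests were chosen with earlier results of these data known. By rule, values by library are given for members called with a log2 change of at least 1 and for members with a mean of at least 20 FPKM; those of further members were added after their values were seen. From each pathway list up to 3 called genes with the largest change were named. Coordinates are GENCODE M21 on GRCm38. Exons of 11 of the 57 members overlap another gene there. Called members among them are Sfrp2 (16.1% of exonic bases), Lef1 (13.7%), Rspo3 (13.1%), Wnt5a (4.6%) and Axin2 (3.8%). In each of these the other gene lies on the opposite strand. The 16 alternative settings are those of the closing section. Figures used Python 3.11.15 and matplotlib 3.10.9.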

Additional observations from a re-analysis of the deposited data

Results flagged for a closer look

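Among 41 genes checked in the 4 libraries labelled Foxl2LsL (the 40 tested members and Foxl2), 1 had a library far from the others: Dkk2 was at 8.671 FPKM in library 4, where the other 3 lay between 5.18 and 5.57 FPKM. The gap to the nearest of them was 0.888 of the whole range, above the limit of Dixon's test. Chance flags about 1 in 20 groups.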

How the results depend on the processing

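Each result was recomputed under 16 settings: pseudocount 0.1, no filter, a mean of at least 5 FPKM, 3 other scalings, no intensity trend, limma-voom on the recovered fragments, a replicate block, and leaving out each of the 7 libraries. Of the 14 called members 9 kept their call wherever tested (Apcdd1, Fzd1, Fzd2, Lef1, Lgr4, Nkd2, Porcn, Sfrp2 and Wnt9a), 5 lost it in at least 1 setting (Axin2, Fzd10, Rspo3, Wnt5a and Wnt5b), and 0 changed direction. The filter of at least 5 FPKM left Lef1 and Wnt5b untested. Without a filter Fzd10 and Wnt5b lost their calls, at adjusted p 0.0567 and 0.0591 (limma). Leaving out 1 library moved the lower calls between 7 and 16, the higher calls between 3 and 7 and all called genes between 3840 and 5318. The highest member counts were those without control 4, and the lowest lower count that without control 2. Of all called genes 41.1% were higher, 49.2% after quantile normalization and 50.4% after median centring, and the 14 member calls were the same under both.

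With a replicate block on libraries 1, 2 and 4 of each group, 3240 genes were called, 2 members were higher and 8 lower, and Fzd10, Rspo3, Wnt5a and Wnt5b lost their calls (adjusted p 0.0866, 0.0852, 0.0503 and 0.119; limma), with 6 libraries in that fit. Deviations of same-numbered libraries correlated at 0.228, -0.0588 and -0.0587, so the numbers were not taken as pairs, and control 2 correlated best with library 1 labelled Foxl2LsL (0.0983), not with its own number.

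Direction changed only in 8 members without a call, and in Foxl2, and only when a library was left out. Over the 7 such fits the log2 change ran from -0.68 to 0.52 for Wnt4, -0.31 to 1.43 for Wnt7a, -0.22 to 0.71 for Wnt7b, -0.35 to 0.18 for Wnt16, -0.026 to 0.34 for Rspo1, -0.025 to 0.090 for Fzd5, -0.10 to 0.26 for Fzd8, -0.31 to 0.066 for Dkk3 and -0.10 to 0.28 for Foxl2. The cause was not tested.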
